A study of Bos taurus with 12 samples.

Results

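Transcripts of 10 secreted mediators of inflammation were followed in the bovine endometrium before embryo transfer. The genes were the CXC chemokines CXCL8, CXCL2 and CXCL5, the CC chemokines CCL2 and CCL20, the interleukins IL1A, IL1B, IL18 and IL6, and the tumor necrosis factor family ligand TNFSF13, also called APRIL. All probe sets to which the platform annotation gave one of these symbols were taken, which made 14 of 24016 probe sets. CCL2, IL1A, IL1B and TNFSF13 had 2 probe sets each, and these are marked (a) for the one with the higher mean signal over the arrays and (b) for the other. The GeneChip Bovine Genome Array was hybridized with pooled RNA of Simmental heifers whose estrous cycles had been synchronized, 1 pool per array and 12 arrays in all. Cells of the endometrium were collected by cytobrush on days 3 and 7 of the cycle. The brush, held in a catheter, reached the uterus by way of vagina and cervix and was drawn back into the catheter before removal. Heifers received an in vitro-produced blastocyst only in the next cycle, and their earlier samples were sorted afterwards by the outcome. HR3 and HR7 are the high receptive groups of days 3 and 7, from heifers later found pregnant, and LR3 and LR7 are the groups without a detected embryo, which the sample records call non receptive. Each group had 3 pools of several heifers, so the spread among single animals was not seen, and p-values measure the spread between pools. The paper calls its study longitudinal, but whether day 3 and day 7 pools of the same number came from the same heifers is not given in the sources used here. The main fit treated the 12 pools as independent.

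Chemokines are small secreted proteins that draw leukocytes along a gradient. CXCL8 binds the neutrophil receptors CXCR1 and CXCR2, and CXCL2 and CXCL5 act chiefly through CXCR2. CCL2 acts on monocytes through CCR2, and CCL20 on lymphocytes and dendritic cells through CCR6. IL1A and IL1B start inflammatory signaling through IL1R1, IL18 is cut into its active form by caspase 1, IL6 signals through IL6R, and TNFSF13 keeps B and plasma cells alive. In the uterus such mediators can be made by epithelium, stroma and leukocytes alike.

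The values were log2 signals, so a difference of 1 is a doubling, and signals of different probe sets cannot be set against each other. Array medians ran from 6.63 to 6.77. A probe set was tested when its SD over the arrays was at least 0.2 and when it stood above the array median on every array of at least 1 group, which held for 7339 probe sets. Of the 14 probe sets, 7 from 6 genes passed this filter, namely CXCL8, CXCL2, CXCL5, both of CCL2, IL18 and TNFSF13 (a). CCL20, IL6 and both probe sets of IL1A and IL1B failed it by their low level, and TNFSF13 (b) by level and SD. These 7 were read from a fit over all 24016 probe sets, and no value of any of the 14 was at 0. Of 13 markers of uterine epithelium 9 were matched, with a summed linear signal of 21737 to 31000 over the 12 pools. EPCAM, CDH1 and KRT19 were at 11.75 or more in every pool, whereas KRT8 (5.83 to 6.59) and PAX8 (5.82 to 6.54) lay below the array medians in all of them. The pools of LR3 stood apart from each other, and its pool 3 was high in CXCL8, IL1RN and the immunoglobulin transcripts IGHM and JCHAIN. The spiked control transcript dap, which reports on target preparation, had a 5' minus 3' log2 signal of -2.98 to -2.54 in LR3 and of -1.82 to -1.38 in LR7, so that it moved with the day in LR; its part in the results was not tested. In HR its values at day 3 (-2.69 to -1.34) and day 7 (-2.33 to -1.69) overlapped.

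**Figure D1:**
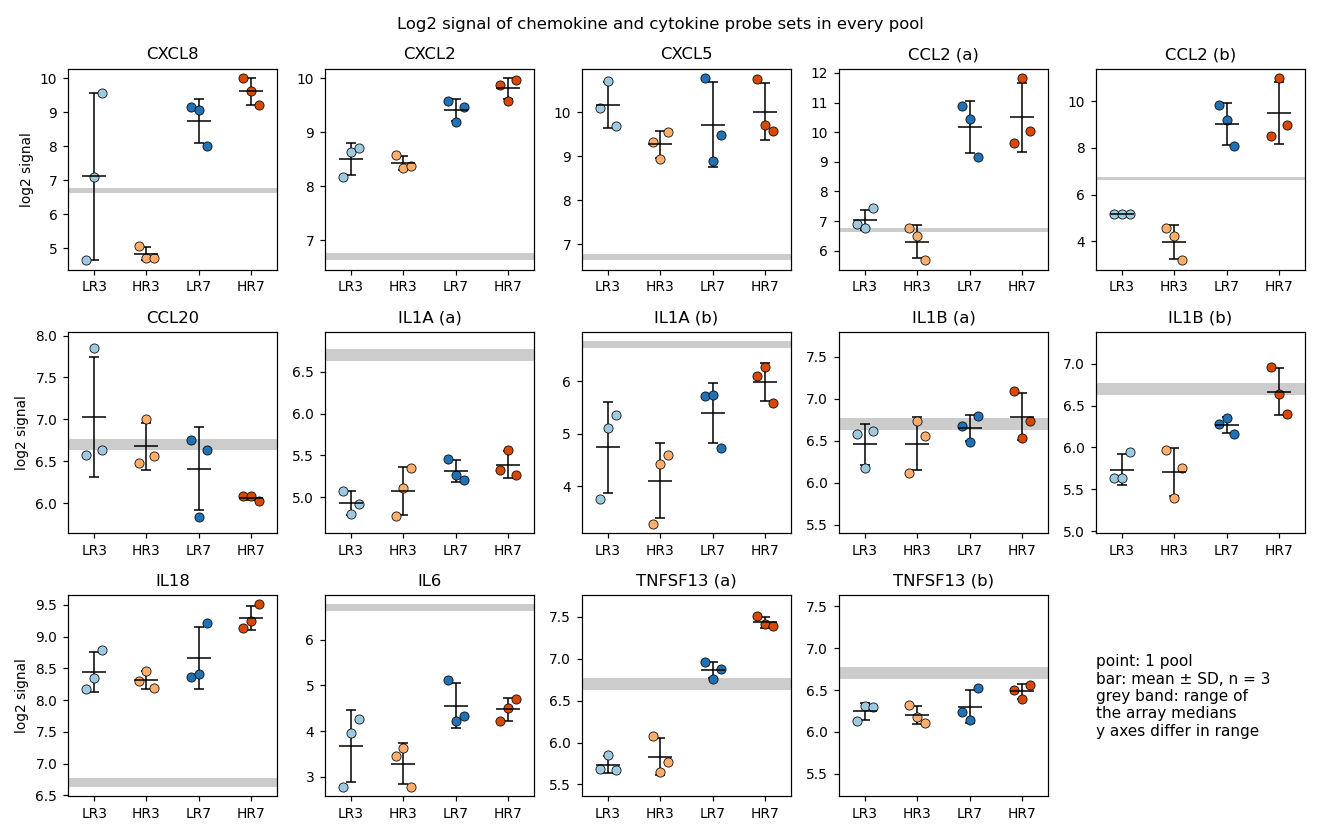
Log2 signal of the 14 probe sets, each panel 1 probe set with its own y axis and each point 1 pool, with mean ± SD over the 3 pools of a group and a grey band for the range of the array medians (6.63 to 6.77). CCL2 and TNFSF13 (a) stand higher in every day 7 pool than in any day 3 pool, and CXCL8 is spread from 4.67 to 9.56 in LR3.

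From day 3 to day 7 most of the tested chemokines and cytokines rose. Over both receptivity groups CCL2, CXCL8, CXCL2, IL18 and TNFSF13 were higher at day 7, by 0.60 for IL18 up to 4.67 for CCL2 (b) on the log2 scale, while CXCL5 did not pass. In limma, 6 of the 7 tested probe sets rose and none fell, whereas 31.1% of all tested probe sets rose and 34.8% fell. The genes were chosen with earlier results of these data known. Shares above those of all probe sets, here and below, are therefore no independent support. CXCL8, CCL2 (b) and TNFSF13 (a) passed the level filter only through the day 7 groups in which they were high, so 3 of these 6 rises could enter the test only by being high at day 7. In HR the same 6 rose (20.7% of all tested), and in LR 4 rose (22.7% of all tested), the exceptions there being CXCL8, CXCL5 and IL18. In a bulk sample, more cells of a type and more RNA per cell cannot be told apart. The forest plot of the change with the day shows all 14 probe sets with their intervals.

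**Figure D2:**
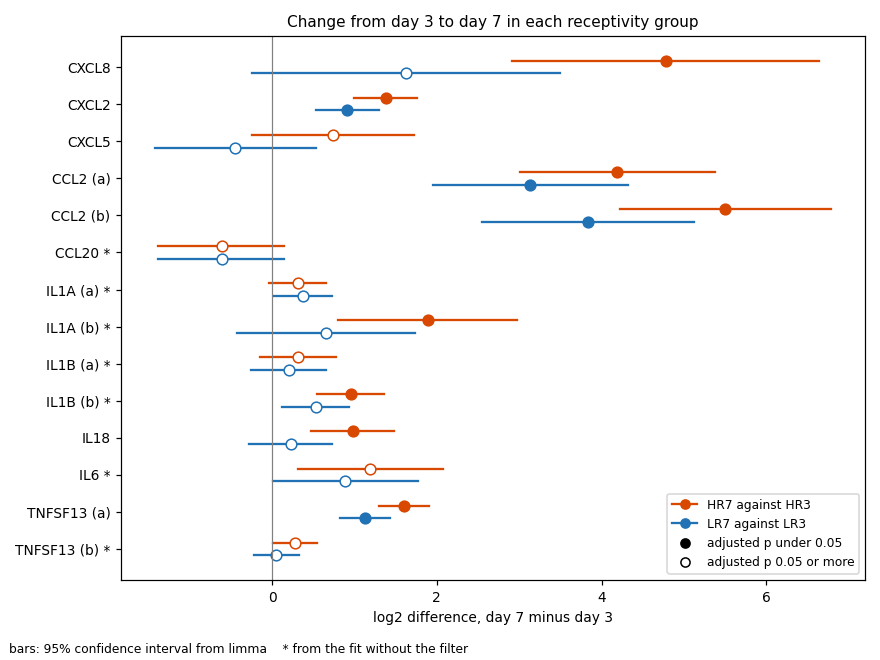
Log2 difference of day 7 minus day 3 for each probe set in HR (orange) and LR (blue), with the 95% confidence interval from limma and a filled point where the adjusted p was under 0.05; an asterisk marks probe sets read from the fit without the filter. The differences of CCL2 (b) reached 5.50 in HR and 3.84 in LR, and those of CXCL5 spanned 0.

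CXCL8, the main neutrophil attractant of cattle, stood at 5.06, 4.72 and 4.73 in HR3, at 4.67, 7.11 and 9.56 in LR3, at 9.16, 9.05 and 8.01 in LR7 and at 10.01, 9.62 and 9.21 in HR7. The 3 pools of HR3 were tightly low and those of HR7 tightly high. LR3 covered nearly the whole range, its pool 3 being above all 3 pools of LR7. In HR the rise was 4.78 ± 0.86 (SE; limma, adjusted p = 0.00175), from HR3 signals that were all below the array medians. In LR it was 1.63 with a 95% interval from -0.24 to 3.49 and did not pass (adjusted p = 0.132). The difference in LR moved with the pools of LR3 and was 0.41 without pool 1 and 2.85 without pool 3, where it passed (adjusted p = 0.0042). Over both groups the rise of 3.20 passed without any one pool, but ranged from 2.59 without pool 1 of LR3 to 3.81 without its pool 3.

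CXCL2, another ligand of CXCR2, stood at 8.58, 8.34 and 8.38 in HR3, at 8.17, 8.63 and 8.71 in LR3, at 9.59, 9.19 and 9.47 in LR7 and at 9.88, 9.59 and 9.97 in HR7. Every day 7 pool was above every day 3 pool, while HR3 and LR3 overlapped and HR7 and LR7 touched at 9.59. The rise was 1.38 ± 0.18 (SE) in HR (limma, adjusted p = 0.00024) and 0.91 ± 0.18 in LR (adjusted p = 0.00257). The probe set matched the RefSeq gene CXCL2, which lies between PF4 and CXCL3 in the RefSeq annotation of ARS-UCD2.0. The related genes CXCL1, on the platform GRO1, and CXCL3 had probe sets of their own, and cross-hybridization among them was not tested.

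CXCL5, which attracts neutrophils and is made largely by epithelium, stood at 9.33, 8.95 and 9.56 in HR3, at 10.10, 10.72 and 9.69 in LR3, at 10.79, 8.90 and 9.48 in LR7 and at 10.77, 9.71 and 9.58 in HR7. In both day 7 groups pool 1 was about 1 unit or more above the other two. In HR every day 7 pool lay above every day 3 pool, but the difference of 0.74 did not pass (limma, 95% interval -0.24 to 1.72, adjusted p = 0.191). In LR the difference was -0.45 with overlapping pools (-1.42 to 0.53, adjusted p = 0.411).

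CCL2, the monocyte attractant, was higher in every day 7 pool than in any day 3 pool by both of its probe sets. CCL2 (b) stood at 4.58, 4.21 and 3.18 in HR3, at 5.19, 5.18 and 5.17 in LR3, at 9.82, 9.17 and 8.06 in LR7 and at 8.51, 11.00 and 8.97 in HR7. The days were far apart in both receptivity groups, the day 3 pools lying below the array medians and the day 7 pools above. Pool 2 of HR7 was the highest of all, and the pools of HR7 and LR7 overlapped. The difference was 5.50 ± 0.59 (SE) in HR (limma, adjusted p = 8.75e-05) and 3.84 ± 0.59 in LR (adjusted p = 0.000784). Since the day 3 signals lay below the array medians, no fold is given. Without pool 2 of HR7 the difference in HR was 4.75.

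CCL2 (a) gave the same order of groups, at 6.76, 6.50 and 5.67 in HR3, at 6.90, 6.78 and 7.43 in LR3, at 10.88, 10.45 and 9.18 in LR7 and at 9.64, 11.84 and 10.03 in HR7. Its difference was smaller, 4.19 ± 0.55 (SE) in HR (limma, adjusted p = 0.00026) and 3.13 ± 0.55 in LR (adjusted p = 0.00153). Without pool 2 of HR7 the difference in HR was 3.52. Both probe sets thus passed in HR and in LR, and in each fit that left out 1 of the 12 pools.

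CCL20, a chemokine of mucosal epithelium, was the one gene with a lower mean at day 7 in both receptivity groups. It stood at 6.48, 7.00 and 6.56 in HR3, at 6.58, 7.85 and 6.64 in LR3, at 6.75, 5.84 and 6.64 in LR7 and at 6.09, 6.08 and 6.03 in HR7. HR7 was below HR3 in every pool, whereas LR7 and LR3 overlapped. Without the filter, the difference over both groups was -0.61 ± 0.24 (SE) and did not pass (limma, unadjusted p = 0.0304, adjusted p = 0.0907).

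Of the interleukin 1 family IL18 alone passed the filter. It stood at 8.30, 8.46 and 8.19 in HR3, at 8.18, 8.34 and 8.79 in LR3, at 8.36, 8.41 and 9.22 in LR7 and at 9.13, 9.24 and 9.51 in HR7. The 3 pools of HR7 were above all pools of HR3, while LR7 overlapped LR3 and only its pool 3 reached the level of HR7. The rise in HR was 0.98 ± 0.23 (SE) (limma, adjusted p = 0.00726), and the difference in LR was 0.23 (95% interval -0.28 to 0.73, adjusted p = 0.419).

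Without the filter, 10 of the 14 probe sets rose over both groups, where 12.5% of all probe sets did. In HR 8 rose (5.74% of all) and in LR 4 (6.24% of all). Beyond the 6 tested probe sets, those that rose over both groups were IL1A (a), IL1A (b), IL1B (b) and IL6. All 4 lay below the array medians on most arrays.

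IL1B (b) stood at 5.97, 5.40 and 5.76 in HR3, at 5.63, 5.63 and 5.95 in LR3, at 6.28, 6.35 and 6.16 in LR7 and at 6.96, 6.64 and 6.40 in HR7. HR3 and LR3 overlapped, LR7 lay above every day 3 pool, and HR7 lay above every LR7 pool. The rise was 0.74 ± 0.13 (SE) over both groups (limma, adjusted p = 0.00288) and 0.96 in HR (adjusted p = 0.0119), and 0.53 in LR, which did not pass (adjusted p = 0.0911). IL1B (a), with 6.11 to 7.09 over the 12 pools, showed overlapping groups and a difference of 0.26 that did not pass (adjusted p = 0.219), so the probe sets of this gene disagreed.

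IL1A (b) stood at 3.28, 4.43 and 4.59 in HR3, at 3.75, 5.11 and 5.35 in LR3, at 5.71, 5.74 and 4.73 in LR7 and at 6.10, 6.28 and 5.58 in HR7. HR7 was above HR3 in every pool, and LR7 and LR3 overlapped. The difference over both groups was 1.27 ± 0.34 (SE) (limma, adjusted p = 0.0219), but it passed in only 9 of 12 fits that left out a pool. That of IL1A (a), 0.34 over a range of 4.78 to 5.57, passed with an adjusted p = 0.0457 and in only 2 of 12 such fits. In HR alone the difference of IL1A (b) was 1.89 (adjusted p = 0.0351) and passed in 6 of 12.

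IL6, a cytokine of the acute phase, was below the array medians in all 12 pools, at 3.45, 3.63 and 2.78 in HR3, at 2.78, 3.95 and 4.27 in LR3, at 5.12, 4.22 and 4.33 in LR7 and at 4.22, 4.50 and 4.71 in HR7. All HR7 pools were above all HR3 pools, and pool 3 of LR3 lay among the pools of LR7. The difference over both groups was 1.04 ± 0.28 (SE) (limma, adjusted p = 0.0213). Within HR (1.19, adjusted p = 0.0824) and within LR (0.89, adjusted p = 0.172) it did not pass.

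TNFSF13 (a) had the smallest error of the tested probe sets. TNFSF13 (a) stood at 6.08, 5.65 and 5.77 in HR3, at 5.68, 5.85 and 5.67 in LR3, at 6.96, 6.76 and 6.88 in LR7 and at 7.51, 7.41 and 7.39 in HR7. The day 3 groups overlapped below the array medians, LR7 lay above both, and HR7 lay above LR7 in every pool. The rise was 1.60 ± 0.14 (SE) in HR (limma, adjusted p = 1.85e-05) and 1.13 ± 0.14 in LR (adjusted p = 0.000198). TNFSF13 (b) ranged from 6.11 to 6.56 over all pools and differed by 0.17 between the days (adjusted p = 0.185), so the probe sets of this gene disagreed too.

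The comparison of receptivity groups asked whether these transcripts differed between heifers with and without a later pregnancy. None of the 7 tested probe sets passed on either day. On day 7 the lowest p were those of TNFSF13 (a), at 0.57 for HR minus LR, and IL18, at 0.63, and on day 3 CXCL8 and CCL2 (b) had the widest negative differences. The forest plot of the receptivity differences gives these on 1 scale.

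**Figure D3:**
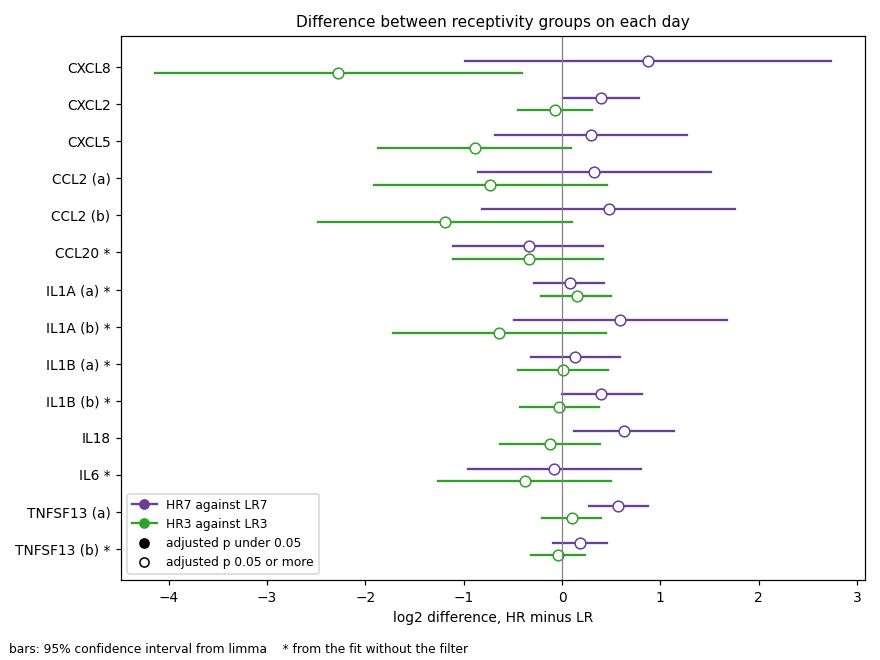
Log2 difference of HR minus LR for each probe set at day 7 (violet) and day 3 (green), with the 95% confidence interval from limma; an asterisk marks probe sets read from the fit without the filter. No point is filled, since none had an adjusted p under 0.05, and the interval of CXCL8 at day 3 runs from -4.14 to -0.41.

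At day 7, 0.0681% of all tested probe sets passed, which were 5 probe sets and none of these genes. With the pool number as a block, 3 probe sets passed, again none of these genes. The paper, with its own annotation, had already listed CXCL2, IL18, IL1B and TNFSF13 as higher in HR7 than in LR7 on these same arrays. The genes were chosen with such results known, so shares above those of all probe sets are no independent support for a difference. At an unadjusted p under 0.05, 3 of the 7 tested probe sets were called, against 4.51% of all tested probe sets. These were TNFSF13 (a) (0.57 ± 0.14, SE; limma, unadjusted p = 0.00136, adjusted p = 0.428), IL18 (0.63 ± 0.23; unadjusted p = 0.0187, adjusted p = 0.839) and CXCL2 (0.40 ± 0.18; unadjusted p = 0.0438, adjusted p = 0.997). CXCL8 differed by 0.87 with an interval from -0.99 to 2.74; the 4 groups share 1 error, and the SD of LR3 was 2.45 against 0.63 in LR7. With the pool number as a block and only HR7 and LR7 in the fit, the difference of CXCL8 was 0.87 ± 0.16 (SE), with an interval from 0.48 to 1.27 (limma, unadjusted p = 0.00162, adjusted p = 0.234). That fit was added after the data were seen. In the block fit over all 4 groups CXCL8 (limma, unadjusted p = 0.352) was not under 0.05, and CXCL2 no longer was (unadjusted p = 0.0507). IL18 (unadjusted p = 0.00846, adjusted p = 0.639) and TNFSF13 (a) (unadjusted p = 0.00223, adjusted p = 0.511) were still under it before adjustment. The differences of CCL2 (a) and (b) at day 7, 0.33 and 0.48, turned to -0.34 and -0.28 without pool 2 of HR7, and that of CXCL5, 0.30, to -0.11 without pool 2 of LR7. Each of the 3 HR7 pools of CXCL8, IL1B (b) and TNFSF13 (a) was above each LR7 pool, so 3 of 14 probe sets had this pattern, as did 4.59% of all probe sets. IL1B and TNFSF13 were among the genes that the paper had already listed in this direction, so this count is no independent support either. Without the filter 0.00833% of all probe sets passed and none of these 14.

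At day 3, 0% of all tested probe sets passed in limma, and 7.06% had an unadjusted p under 0.05. Of the 7 tested, CXCL8 alone was under that limit, at -2.28 ± 0.86 (SE; limma, unadjusted p = 0.0209, adjusted p = 0.668), and its difference was -1.05 without pool 3 of LR3 and -3.50 without pool 1. Every HR3 pool was below every LR3 pool for CXCL5, CCL2 (a) and CCL2 (b), 3 of 14 probe sets, as it was for 4.61% of all probe sets. With the pool number as a block, CXCL5 (unadjusted p = 0.0481, adjusted p = 0.684) and CCL2 (b) (unadjusted p = 0.0422, adjusted p = 0.684) were under 0.05 as well. The residuals of same-numbered pools of LR3 and HR3 correlated negatively, however (-0.082, -0.03 and -0.47). Without the block the differences of CXCL5, CCL2 (a) and CCL2 (b) were -0.89 (95% interval -1.87 to 0.09), -0.73 (-1.91 to 0.46) and -1.19 (-2.48 to 0.10). Without the filter 0.00416% of all probe sets passed at day 3 and none of these 14.

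Whether the change with the day differed between HR and LR was tested as the interaction of receptivity and day. It passed for 0% of all tested probe sets in limma, and for 0.00416% of all probe sets without the filter, none of them among these genes. The choice of genes with earlier results known limits the shares here as well. At an unadjusted p under 0.05, 3 of the 7 tested probe sets were called, against 3.9% of all tested probe sets. The rise in HR exceeded that in LR by 3.15 ± 1.21 (SE) for CXCL8 (limma, unadjusted p = 0.0233), by 0.75 ± 0.33 for IL18 (unadjusted p = 0.0411) and by 0.47 ± 0.19 for TNFSF13 (a) (unadjusted p = 0.0327), each with an adjusted p = 1. That of CXCL8 was 1.93 without pool 3 of LR3 and 4.37 without pool 1. With the pool number as a block CCL2 (b) was called too (1.67, unadjusted p = 0.0439, adjusted p = 1). None of the 7 tested probe sets was therefore shown to differ between HR and LR in its change with the day.

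Among other chemokines, 11 of 23 matched genes were tested. Over both receptivity groups 6 of 11 rose and 3 fell with the day, where 31.1% of all tested probe sets rose and 34.8% fell, and the median difference was 0.33 against -0.08 for all tested probe sets. PF4, the platelet chemokine, rose by 1.93 ± 0.40 (SE; limma, adjusted p = 0.00166), CXCL3 by 0.85 (adjusted p = 0.00449) and the mucosal chemokine CCL28 by 0.83 (adjusted p = 0.00321). CXCL10, an interferon-induced attractant of T cells, fell by 1.95 ± 0.23 (adjusted p = 4.71e-05), CCL5 by 0.95 (adjusted p = 0.0105) and CXCL14 by 0.94 (adjusted p = 0.0248). PF4 and CXCL3 passed the level filter only through LR7, and CCL5 only through the day 3 groups. These changes could thus enter the test only by a high level on that day. CXCL1 rose by 0.33 (adjusted p = 0.0308), from 10.61 to 11.30 over the day 3 pools to 11.10 to 11.46 over the day 7 pools, which overlap. The gene neighbours CXCL2, PF4 and CXCL3 thus all rose. In the same annotation LOC534181 lies next to both CXCL8, which rose, and CXCL5, which did not pass.

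Few receptors of these ligands were above the filter. CXCR1, the receptor of CXCL8, was left out by it and stood at 4.78, 3.91 and 4.62 in HR3, at 3.92, 4.78 and 6.34 in LR3, at 5.47, 5.26 and 4.67 in LR7 and at 7.91, 6.78 and 5.33 in HR7. Its values in HR7 were above those of HR3 in every pool, and pool 3 of LR3 stood above all of LR7. Of 2 tested chemokine receptors among 12 matched, too few to set against those shares, CXCR4 rose by 1.10 (limma, adjusted p = 0.000232) and the scavenging receptor ACKR3 fell by 0.36 (adjusted p = 0.0461). CXCR4 passed the level filter only through the day 7 groups, where it was high. CXCR2, CCR2 and CCR6 had no probe set matched by symbol.

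In the interleukin 1 and 18 axis, 3 of 7 tested genes rose and none fell with the day, where 31.1% of all tested probe sets rose and 34.8% fell, so the share that rose was near that of all. The median was 0.33 against -0.08. IL1RAP, the shared coreceptor of interleukin 1, rose by 0.98 (limma, adjusted p = 0.000234), CASP1, the protease that cuts IL1B and IL18, by 0.39 (adjusted p = 0.019), and the adaptor MYD88 by 0.33 (adjusted p = 0.00942). CASP1 passed the level filter only through HR7, where it was highest. IL1RN, the natural inhibitor of interleukin 1, stood at 7.75, 8.05 and 7.94 in HR3, at 7.33, 7.83 and 9.65 in LR3, at 8.29, 8.68 and 8.41 in LR7 and at 9.22, 9.19 and 8.47 in HR7. Pool 3 of LR3 was its highest pool, and its difference of 0.62 between the days did not pass (adjusted p = 0.102). The signaling receptor IL1R1 differed by 0.13 (adjusted p = 0.507), and the decoy receptor IL1R2 and IL18R1 were left out by the filter.

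In the interleukin 6 axis 1 of 4 tested genes rose and 1 fell, near the shares of all tested probe sets (31.1% and 34.8%), with a median of -0.24. IL6R, the ligand-binding receptor, rose by 1.27 ± 0.16 (SE; limma, adjusted p = 7.09e-05), and its pools ranged from 8.61 to 9.25 at day 3 and from 9.89 to 10.82 at day 7, without overlap. The transcription factor CEBPD fell by 0.38 (adjusted p = 0.0274). In the list of the TNF and APRIL axis none of 4 tested genes rose and 3 fell (31.1% and 34.8% of all tested), with a median of -0.82. They were the cytokine LTB (-1.28, adjusted p = 2.16e-05), TNFRSF12A, the receptor of TWEAK (-1.19, adjusted p = 0.000503), and the TNF receptor TNFRSF1A (-0.44, adjusted p = 0.00113). LTB passed the level filter only through the day 3 groups, where it was high. TNFSF13B, the closest relative of TNFSF13, was left out by the filter with 4.77 to 6.57 over all pools, and its receptors TNFRSF13B and TNFRSF17 were not matched.

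On the list of NF-kappa-B subunits and regulators, 4 of 10 tested genes rose and 2 fell with the day, with a median of 0.21. These shares were near the 31.1% and 34.8% of all tested. The list also held ZFP36 and ZFP36L1, which are no subunits of NF-kappa-B. ZFP36, which destabilizes cytokine transcripts, rose by 0.78 (limma, adjusted p = 0.00662), TAB1 by 0.49 (adjusted p = 0.000674) and IKBKG by 0.45 (adjusted p = 0.00174), whereas the kinase IKBKB fell by 0.56 (adjusted p = 0.00124) and ZFP36L1 by 0.51 (adjusted p = 0.0023). Among Toll-like receptors and their partners 2 of 3 tested rose and 1 fell (31.1% and 34.8% of all tested), with CD14 at 1.43 (adjusted p = 0.00146), TLR2 at 0.51 (adjusted p = 0.00316) and TLR6 at -0.41 (adjusted p = 0.00145). No gene of these 7 pathway lists passed between HR and LR on either day or for the interaction.

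**Figure D4:**
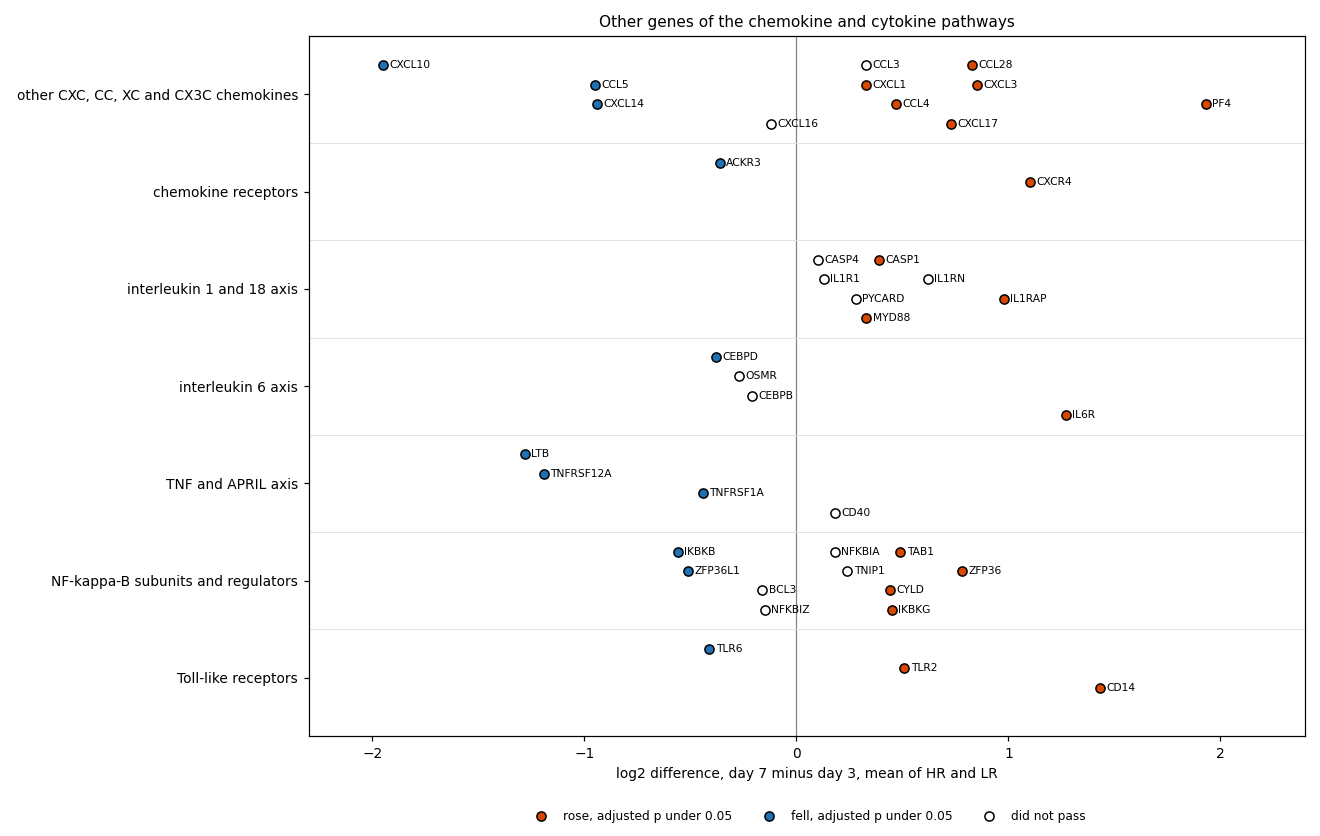
Log2 difference of day 7 minus day 3, as the mean of HR and LR, for each tested gene of the 7 pathway lists (rows; heights within a row only separate the labels), in orange where it rose, in blue where it fell and in white where it did not pass. PF4 at 1.93 and CXCL10 at -1.95 lie at the ends, and the tested genes of the interleukin 1 and 18 axis are all above 0.

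Markers of leukocytes moved with several of these results. Of 15 neutrophil markers 12 were matched and none was at 0 in all pools of a group. Their summed linear signal was 16376 to 16641 in HR3, 14878 to 16645 in LR3, 18876 to 22395 in LR7 and 23419 to 29475 in HR7. Most of it came from LTF, lactoferrin, which uterine epithelium also makes. Without LTF the sum was 440 to 594 in HR3, 598 to 1136 in LR3, 3695 to 6011 in LR7 and 7035 to 12977 in HR7, the same order of groups as for the means of CXCL8. At day 7 S100A12 and S100A8 made up most of this sum. FCGR3A, CATHL1, CATHL4 and CAMP overlapped between the days, CAMP at 2.37 to 3.47 on day 3 and 0.62 to 3.18 on day 7. The 3 tested markers all rose with the day, where 31.1% of all tested probe sets did. The rise was 4.15 for S100A12, 3.87 for S100A8 and 1.73 for S100A9 (limma, adjusted p = 3.75e-07, 1.28e-06 and 1.36e-05). The granule genes MPO and ELANE were below the array medians in all pools, at 0.87 to 4.74 and 3.60 to 4.53. At day 7 S100A12, S100A8 and S100A9 differed by 1.07, 1.16 and 0.74 between HR and LR and did not pass (limma, adjusted p = 0.64, 0.645 and 0.686). For these 3 every HR7 pool was above every LR7 pool, as it was for 4.59% of all probe sets. The paper had already listed S100A8 and S100A9 in this direction. The summed markers of squamous epithelium, given below, were also higher at day 7 and highest in HR7. The part of either cell type in these changes and in those of the chemokines was not tested.

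S100A12, a calgranulin on the list of neutrophil markers, stood at 7.47, 7.28 and 7.50 in HR3, at 7.91, 7.78 and 9.05 in LR3, at 11.28, 11.91 and 11.16 in LR7 and at 12.04, 13.09 and 12.43 in HR7. All 4 groups were apart, in the order of HR3, LR3, LR7 and HR7, and pool 3 of LR3 was the highest of day 3, as for CXCL8. The same pool was high in the immunoglobulin transcripts among the B and plasma cell markers, of which 7 of 11 were matched and none was at 0 in all pools of a group. Their summed linear signal in LR3 was 976, 1245 and 3078 for pools 1, 2 and 3, against 880 to 998 in HR3, 1251 to 1607 in LR7 and 1156 to 1315 in HR7. The immunoglobulin chain IGHM had 7.73, 8.09 and 10.06 in LR3, and JCHAIN 7.81, 8.61 and 10.37. The B cell markers CD79A (3.74, 3.64 and 2.31) and MS4A1 (4.84, 4.81 and 3.28) were instead lowest in pool 3 of LR3. IGHM and JCHAIN were highest in the pool with the highest CXCL8 of day 3, and their part in the spread of CXCL8 was not tested.

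**Figure D5:**
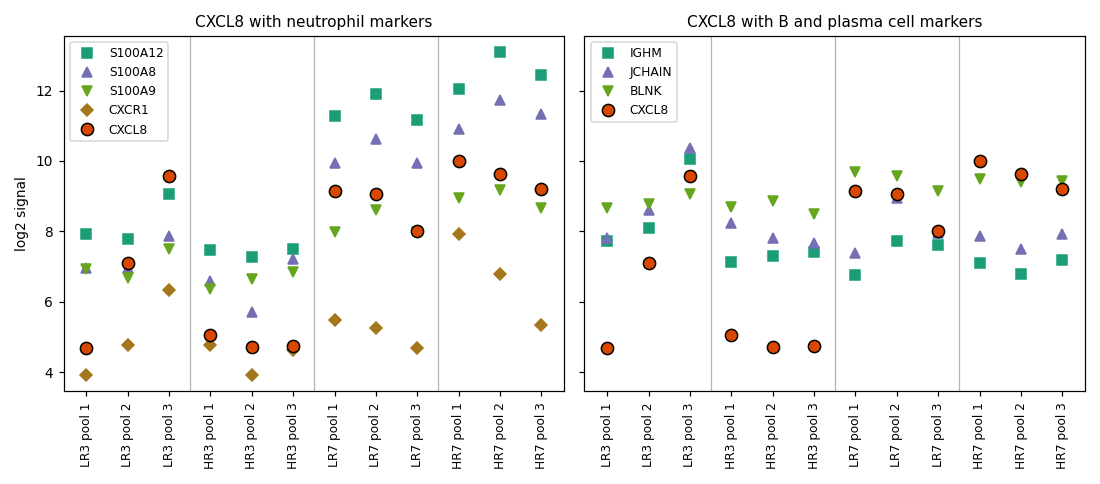
Log2 signal of CXCL8 (orange circles) in the 12 pools beside 4 neutrophil markers (left) and 3 B and plasma cell markers (right); grey lines part the groups. In LR3 the 3 pools of CXCL8 span 4.67 to 9.56, and pool 3 is also the highest LR3 pool of S100A12 (9.05) and IGHM (10.06). S100A12 is above 11 in every day 7 pool. The markers shown were picked from 12 matched neutrophil and 7 matched B and plasma cell markers. Those not shown went both ways in pool 3 of LR3. MPO (0.87), CD79A (2.31) and MS4A1 (3.28) had their lowest LR3 value there, and CAMP (3.28) and POU2AF1 (5.02) their highest.

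Macrophage and monocyte markers, of which 11 of 13 were matched and none was at 0 throughout a group, summed to 2275 to 3383 in HR3, 2024 to 2665 in LR3, 2697 to 3039 in LR7 and 2550 to 5490 in HR7. These sums overlap between the days. Of 9 tested markers 3 rose and 1 fell with the day (31.1% and 34.8% of all tested). Their median difference was 0.10, with 5 above 0 and 4 below. CD68 (6.74 to 7.12 at day 3, 8.23 to 9.62 at day 7) and FCER1G (2.58 to 5.61, 5.66 to 6.95) parted the days as CCL2 did. C1QA, C1QB, C1QC and CSF1R overlapped between the days, C1QC at 7.64 to 8.72 on day 3 and 6.24 to 7.93 on day 7. The highest sum was that of pool 2 of HR7, the pool with the highest CCL2. T and NK cell markers (14 of 16 matched) summed to 2079 to 2145 in HR3 and 2092 to 2630 in LR3 and, lower, to 1236 to 1855 in LR7 and 1246 to 1682 in HR7, as CXCL10 and CCL5 fell. Squamous epithelium markers (7 of 16 matched), which the vagina and outer cervix express, summed to 361 to 506 in HR3, 358 to 508 in LR3, 699 to 836 in LR7 and 2841 to 4356 in HR7, the sum in HR7 being mostly KRT5 and KRT15. KRT15 passed between HR7 and LR7 (3.08; limma, adjusted p = 0.00128), while KRT14 was at 5.92 to 6.15 in HR7 and 5.94 to 6.25 in LR7. Stroma markers (15 of 16 matched) ranged from 13302 to 17693 in HR3, 6599 to 14211 in LR3, 4754 to 10820 in LR7 and 4511 to 16403 in HR7. No matched marker of these 3 lists was at 0 in all pools of a group, though DSC3 was at 0 in pools 2 and 3 of LR7, and the part of these cells in the results was not tested.

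The genes most like CCL2 (b), the tested probe set with the widest range of group means, were LOC514170 (Pearson r = 0.982 over the 12 arrays), CHMP5 (0.977), USO1 (0.974), CFTR (0.971) and TWF2 (0.968). These values are a description: the 12 arrays share the step from day 3 to day 7, which any gene with a strong change of day follows.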

How the data were processed

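Total RNA of 12 pools was hybridized to 12 arrays. Per the submitters' processing notes and the methods, the authors scanned with GCOS 1.1.1 under global scaling and made the deposited log2 signals with PLIER in Affymetrix Expression Console; the values were used as deposited. Present calls were not used here, and an SD of at least 0.2 with a level above the array median on every array of a group stood in for them (18101 and 12277 probe sets met either condition, 7339 both). 112 control probe sets were left out. Groups came from the sample titles. The genome build behind the platform annotation is not given in the sources used here, so no coordinates or sequences are printed. Of the 24016 probe sets, 13292 had 1 symbol, 86 several and 10638 none.

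The fit was made in limma 3.58.1 (R 4.3.3) on all 12 arrays, with 4 group means, moderated errors and Benjamini-Hochberg adjustment within each comparison over all fitted probe sets; passed, rose and fell mean an adjusted p under 0.05. The number of arrays limits the precision. Tables and figures were made in Python 3.11.15 with pandas 2.3.3, numpy 2.4.6 and matplotlib 3.10.9, and the fits were tested on simulated data. The genes and all lists were chosen with earlier results of these data known. All probe sets of the 10 genes are named; from a pathway list, up to 3 genes per direction with the largest change among those that passed, and receptors, inhibitors and closest relatives of the genes. BLNK, S100A8 and S100A9 were shown in the figure as further markers, and CXCL8 was set beside markers after its values were seen. Where a list gene had several probe sets, that of highest mean was used.

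Pools carry numbers 1 to 3 in every group. The residuals of same-numbered pools correlated above 0.1 throughout for LR3 with LR7 (0.198, 0.211 and 0.463) and LR7 with HR7 (0.136, 0.147 and 0.445), and not for the other pairs of groups. This is no more than a hint from the data that same-numbered pools share something there. Correlations between pools of different number were not computed for comparison. Each heifer was in HR or LR only, so same-numbered pools of LR7 and HR7 cannot hold the same heifers. What they share is not given in the sources used here. Alternatives were no filter, a stricter one (60th percentile), quantile normalization, median centring, 16 added to the signal, an intensity trend, no moderation, the pool number as a block, only the compared groups, an unadjusted p, and leaving out each pool; 2 were added after seeing the data, namely the block with only the compared groups and the combinations with no filter.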

Additional observations from a re-analysis of the deposited data

How the results depend on the processing

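The rises over both receptivity groups and in HR held for the same 6 probe sets in every filtered fit that left out a pool, and for 4 to 5 in LR, the fifth being CXCL8 without pool 3 of LR3. Without the filter, 10 probe sets of these genes rose over both groups. No probe set of these genes passed between HR and LR or for the interaction when a pool was left out (0 to 0). Signal over background was not used here. No difference that passed changed its sign. Differences that had not passed did in 42 fits that left out a pool and 5 under other settings. For example, HR7 minus LR7 of CCL2 (a) went from 0.33 to -0.34 and of CCL2 (b) from 0.48 to -0.28 without pool 2 of HR7, that of CXCL5 from 0.30 to -0.11 without pool 2 of LR7, and LR7 minus LR3 of IL18 from 0.23 to -0.05 without pool 3 of LR7. At an unadjusted p under 0.05 the probe sets of these genes called were 1 for HR3 against LR3, 3 for HR7 against LR7 and 3 for the interaction.

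Over all tested probe sets, the count for HR3 against LR3 was 0, 1 with no filter, 518 at an unadjusted p and 0 to 5 without a pool. For HR7 against LR7 it was 5, 3 with the stricter filter or only the compared groups, 8 with 16 added, 2 with no filter, 331 at an unadjusted p and 2 to 9 without a pool. For the interaction it was 0, 2 with 16 added, 1 with no filter, 286 at an unadjusted p and 0 to 2 without a pool. For LR7 against LR3 it was 3280, 1957 with only the compared groups and 2155 to 3261 without a pool. For HR7 against HR3 it was 3045, and 1926 to 3222 without a pool, and for both groups together 4835, and 4398 to 4838. The cause was not tested.

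The pool number as a block changed no call at an adjusted p of a tested probe set of these genes, and the count for HR7 against LR7 went from 5 to 3. Without the filter, IL1A (a) no longer passed over both groups under the block, and no probe set passed for LR7 against LR3 when the block was joined with only these 2 groups (5961 at an unadjusted p).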
